A study of Mus musculus with 59 samples.

Results

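The basement membrane genes followed here are 10 genes for components of the sheet of matrix that wraps vessels and muscle cells: Col4a1, Col4a2, Col15a1, Col18a1, Lama1, Lama2, Lamb2, Lamc1, Nid1 and Hspg2. Every probe set of the array that the platform annotation gives to exactly 1 of these genes was taken, which gave 15 probe sets of 10833 with a single gene, or 10 genes of 8251. RNA of the left ventricle was measured on 59 Affymetrix arrays, in mice given a myocardial infarction and in mice given a sham operation. Each array held 1 piece of tissue. The infarct group is tissue between the left anterior descending coronary artery and the apex of an infarcted heart, the remote group is tissue of the infarcted heart above that artery, and the sham upper group is the same upper tissue of a sham-operated heart, named in the labels as control of both. Each of these groups had 3 arrays per time, or 18 in all, and the times were 1 h, 4 h, 24 h and 48 h and then 1 and 8 weeks from surgery. A sham lower group, from the place that corresponds to the infarct, had 5 arrays, 1 at each time except 8 weeks. The sources used here do not give strain, age or sex, and no agent or genetic change is named in the labels. The labels do not say whether the arrays of a group came from separate animals. P values therefore measure the spread between these arrays, which may be technical. Within a group, single arrays are called array 1, 2 and 3 by rising title number.

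Basement membranes are built from independent networks of laminin and of type IV collagen, which nidogen and perlecan link to each other. A laminin is a trimer of an alpha, a beta and a gamma chain that binds cell surface receptors such as dystroglycan and integrins, and a type IV collagen molecule of the vessel wall combines Col4a1 and Col4a2 chains. Heart muscle cells and capillaries are each surrounded by such a sheet, so a piece of ventricle holds basement membrane of several cell types. Values are intensities scaled by the authors on a linear scale. A change is the difference of mean log2 values after 45.6 was added to each intensity, which understates the change of dim probe sets, and is given with its SE. A change passed the test when its limma p, adjusted over 8140 probe sets within the comparison, was below 0.05.

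Col4a1 and Col4a2 lie head to head on mouse chromosome 8 and start from a shared stretch of DNA, so their start regions are shown. The windows cover 250 bases before to 50 bases after each start in RefSeq (GRCm38.p6). They are chr8:11312777-11313076 on the minus strand for Col4a1 and chr8:11312555-11312854 on the plus strand for Col4a2. Capitals mark GC boxes (GGGCGG on either strand) and CCAAT boxes (CCAAT on either strand).
Col4a1: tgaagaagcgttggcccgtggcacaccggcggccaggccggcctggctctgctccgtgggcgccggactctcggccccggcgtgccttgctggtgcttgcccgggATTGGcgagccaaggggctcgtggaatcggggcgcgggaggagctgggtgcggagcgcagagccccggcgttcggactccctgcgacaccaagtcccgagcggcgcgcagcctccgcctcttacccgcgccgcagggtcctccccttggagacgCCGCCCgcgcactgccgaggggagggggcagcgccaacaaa
Col4a2: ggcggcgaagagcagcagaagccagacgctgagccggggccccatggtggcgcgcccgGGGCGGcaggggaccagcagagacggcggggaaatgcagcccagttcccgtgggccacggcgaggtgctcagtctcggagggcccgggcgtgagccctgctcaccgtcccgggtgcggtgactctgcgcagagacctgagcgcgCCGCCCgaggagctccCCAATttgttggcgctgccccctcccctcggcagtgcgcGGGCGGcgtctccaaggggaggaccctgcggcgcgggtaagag
The windows share 78 bases. The Col4a1 window holds 1 GC box and 1 CCAAT box, and the Col4a2 window holds 3 GC boxes and 1 CCAAT box, with a GC box in the shared stretch. GC content was 74.0% for Col4a1 and 73.7% for Col4a2, against a median of 52.7% over 32851 windows of the same length. A GC box was found in 35.7% of all windows and a CCAAT box in 37.4%. Neither window held the letters TATAAA, which 13.6% of windows have, or TGANTCA, the AP-1 motif, which 7.81% have. Windows were found for 8 of the 10 genes; Lama1 and Lamc1 had none.

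All 4 collagen genes rose in the infarct, at different times, while Lamb2 and Lama2 fell there. Of the 15 probe sets, 13 passed the filter on dim signal and were tested. In the infarct against sham upper tissue, 1 of the 15 passed the test at 1 h, where 6.34% of all tested probe sets did. At 4 h 3 passed, against 11.3% of all. At 24 h 6 passed (40.7% of all), at 48 h 9 (49.4%), at 1 week 11 (58.4%) and at 8 weeks 7 (19.9%). At 24 h and later much of the array changed, so the count of members says little by itself. The direction and size of the members' changes are more informative. Fitted on the 2 groups alone, 3 passed at 24 h and 0 at 8 weeks. At 1 week 9 of the passing probe sets were higher and 2 lower. Of these, 3 dim Col18a1 probe sets passed the filter mainly through the groups where they are high, and with 1 probe set per gene 6 were higher and 2 lower. Over the 6 times together all 13 tested probe sets differed from sham by an F test, as did 75.8% of the array.

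**Figure D1:**
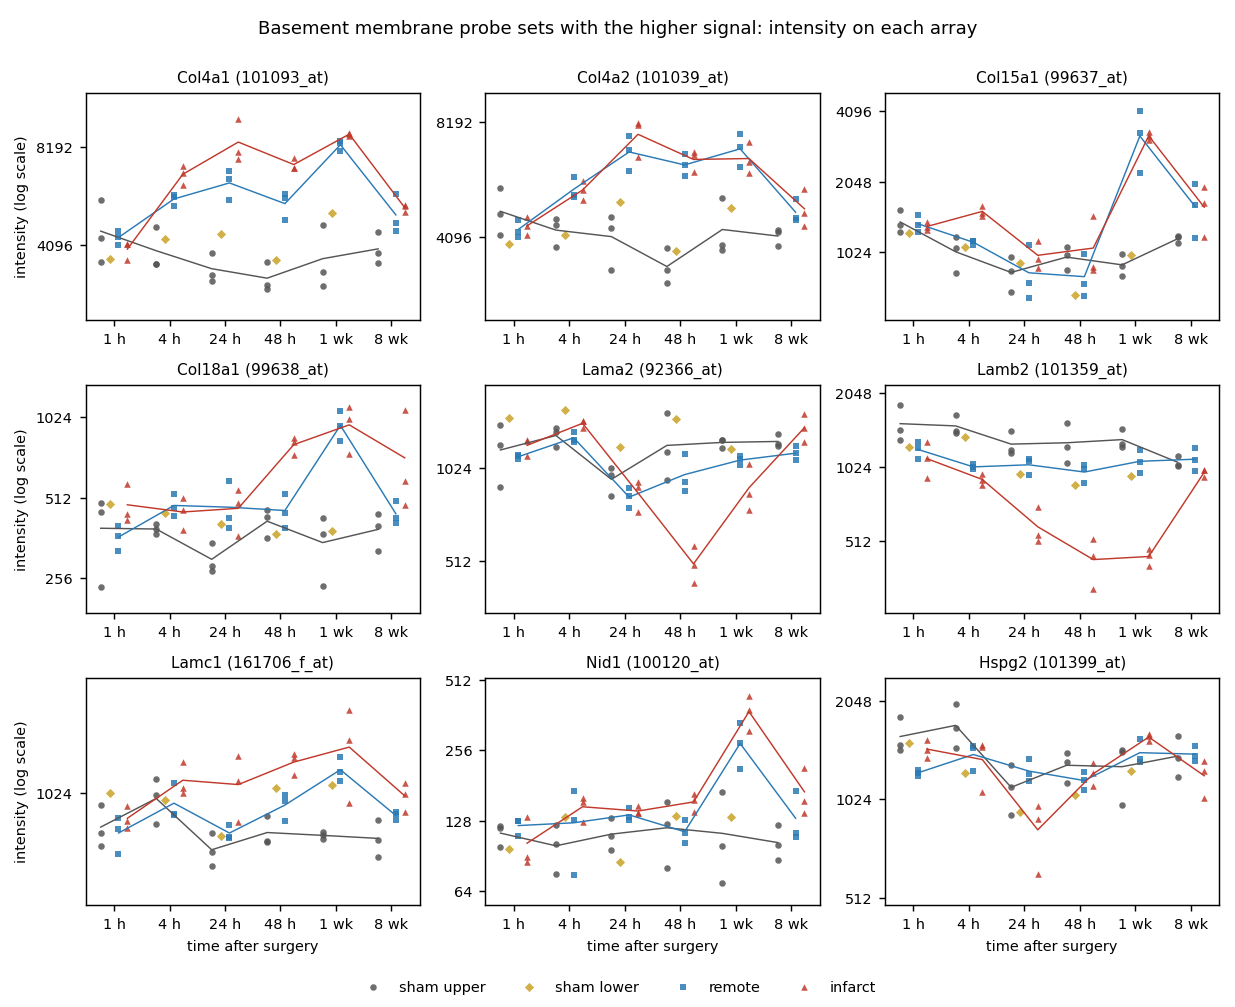
Intensity (log axis) of the 9 probe sets with the higher signal against time after surgery; each point is 1 array and each line joins the mean of the 3 arrays of a region, and sham lower tissue (diamonds) has 1 array per time and no line. Col4a1 and Col4a2 lie above sham in both infarct and remote tissue from 24 h to 1 week, Col15a1 and Nid1 peak at 1 week, and Lamb2 is lowest in the infarct from 24 h to 1 week.

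Col4a1, which encodes a chain of the type IV collagen network, was higher in the infarct from 4 h to 8 weeks. At 4 h the infarct arrays read 6299, 6847 and 7182, the remote arrays 5425, 5786 and 5855, and the sham upper arrays 3584, 3593 and 4656. The 3 regions did not overlap, with the infarct highest and sham lowest. The rise over sham was 0.78 ± 0.14 in the infarct (adjusted p = 9.3e-05) and 0.53 ± 0.14 in remote tissue (adjusted p = 0.03). The remote call at 4 h was lost without any 1 remote array or without sham upper array 1 or 3, and infarct against the single sham lower array at 4 h gave 0.63 ± 0.19 (adjusted p = 0.085).

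At 24 h Col4a1 reached 7538, 7947 and 10046 in the infarct, 5633, 6547 and 6939 in remote tissue and 3194, 3332 and 3892 in sham upper tissue. The infarct change was 1.28 ± 0.14 and the remote change 0.86 ± 0.14. At 1 week the infarct arrays read 8887, 9024 and 9088, the remote arrays 7983, 8479 and 8587, and the sham upper arrays 3070, 3396 and 4717. Both regions of the infarcted heart lay well above sham upper tissue then, by 1.29 ± 0.14 (adjusted p = 1.1e-10) and 1.18 ± 0.14 (adjusted p = 1.3e-08). Against the single sham lower array the infarct change was smaller, at 0.916 at 24 h and 0.845 at 1 week. The infarct exceeded remote tissue by 0.42 ± 0.13 at 24 h and 0.40 ± 0.13 at 48 h. The first call was lost without infarct array 2 or remote array 1, and the second without remote array 1 (0.32 ± 0.14, adjusted p = 0.068). At 1 week infarct minus remote was 0.11, with a 95% interval of -0.15 to 0.37. By 8 weeks the infarct mean had come down to 5350 ± 131 (SD, n = 3) against 3996 ± 446 in sham (change 0.42 ± 0.14, adjusted p = 0.025). That call was lost without array 2 or 3 of either group, and when the 2 groups were fitted alone.

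Col4a2, the partner chain, was also higher in both regions from 24 h to 1 week. Its changes over sham then were smaller than those of Col4a1, except in remote tissue at 48 h, where the Col4a2 change was larger. At 24 h the infarct arrays read 6632, 8018 and 8117, the remote arrays 6077, 6891 and 7504, and the sham upper arrays 3348, 4319 and 4624. Infarct and remote overlapped each other, and both lay above sham. The changes over sham were 0.89 ± 0.12 in the infarct and 0.73 ± 0.12 in remote tissue at 24 h, 0.93 ± 0.12 and 0.88 ± 0.12 at 48 h, and 0.62 ± 0.12 and 0.71 ± 0.12 at 1 week, all of which passed. At 4 h (0.35 ± 0.12, adjusted p = 0.063) and 8 weeks (0.23 ± 0.12, adjusted p = 0.19) the infarct did not pass. Against the single sham lower array the infarct change was 0.54 at 24 h, 0.77 at 48 h and 0.46 at 1 week. Infarct and remote tissue did not differ by the test at any time. Over the 54 arrays of infarct, remote and sham upper tissue Col4a1 and Col4a2 correlated at 0.90 (Pearson, log2 values); these arrays share the same scaling and include pairs of regions with 1 title number.

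Col15a1, a basement membrane collagen with a heparan or chondroitin sulfate side chain found around vessels and muscle fibres, was high at 1 week and close to sham at 24 h and 48 h. In the infarct at 1 week the arrays read 3091, 3212 and 3349, the remote arrays 2237, 3303 and 4102, and the sham upper arrays 802, 892 and 1004. Every array of the infarcted hearts was above every sham array, and the remote arrays spread around the infarct ones. The change was 1.79 ± 0.19 in the infarct (adjusted p = 1.6e-10) and 1.75 ± 0.19 in remote tissue (adjusted p = 4.8e-09). Infarct minus remote was 0.04, with an interval of -0.32 to 0.41. At 4 h the infarct arrays read 1459, 1506 and 1611 against 830, 1061 and 1180 in sham and 1091, 1138 and 1143 in remote tissue. That change of 0.57 ± 0.19 had an adjusted p of 0.05 after rounding and still passed, and it was lost without any 1 infarct array or without sham upper array 2 or 3. At 48 h the change was 0.09 ± 0.19 (adjusted p = 0.73).

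Col18a1, whose cleaved end is the angiogenesis inhibitor endostatin, had 5 probe sets. On 99638_at, which reached the filter intensity of 108.2 on all 59 arrays, the infarct arrays read 741, 828 and 858 at 48 h, the remote arrays 396, 449 and 530, and the sham upper arrays 362.3, 432.7 and 458.9. The infarct arrays were above all others at 48 h, and remote and sham arrays overlapped. The infarct was higher than sham by 0.89 ± 0.21 (adjusted p = 5.8e-04) and higher than remote tissue by 0.77 ± 0.20 (adjusted p = 0.0014). At 1 week remote tissue had risen as well: the means were 959 ± 194 in the infarct, 955 ± 121 in remote tissue and 348 ± 98.6 in sham (SD, n = 3). The changes over sham were then 1.37 ± 0.21 in both, and their difference was -0.01 with an interval of -0.40 to 0.39. On 99638_at the infarct had also passed as higher than sham at 24 h. That call was lost with quantile normalization (0.51), with both sham regions together as control (0.47) and with the 2 groups alone (0.56). It was also lost without sham upper array 1 or 3 or infarct array 1 or 2. Against the single sham lower array the 24 h change was 0.16.

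**Figure D2:**
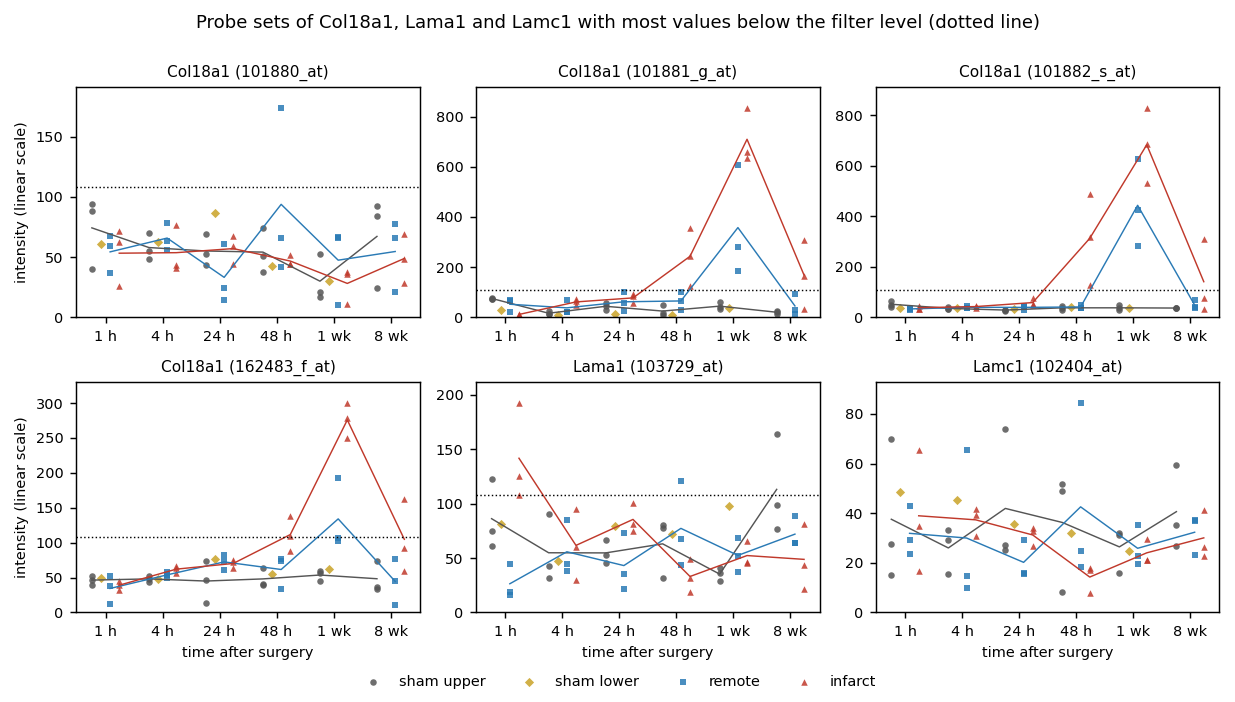
Intensity (linear axis) on each array of the 6 probe sets of Col18a1, Lama1 and Lamc1 with the lower signal against time after surgery, with lines through the mean of the 3 arrays of a region; the dotted line is the filter intensity of 108.2. The Col18a1 probe sets 101881_g_at, 101882_s_at and 162483_f_at rise above the line at 48 h in the infarct and at 1 week in both regions of the infarcted heart, and Col18a1 101880_at and Lamc1 102404_at do not.

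The other Col18a1 probe sets were dim in sham tissue. On 101882_s_at the sham upper arrays at 1 week read 27.8, 37.6 and 47.6, the remote arrays 280.5, 423.7 and 625.8, and the infarct arrays 533.2, 687.5 and 827.7. The probe sets 101881_g_at and 162483_f_at gave the same order at 1 week, with the infarct arrays above all remote arrays on both. Relative to sham the infarct change at 1 week was 3.07 ± 0.36, 3.12 ± 0.29 and 1.70 ± 0.23 on 101881_g_at, 101882_s_at and 162483_f_at, and all passed. These probe sets were tested because they passed the filter on 11, 10 and 7 arrays, mostly of infarct or remote tissue at 48 h or 1 week, so that they differ between groups is in part set by the filter. Their suffixes mark probes that are not unique to 1 transcript. The sizes also depend on the added constant: on 101882_s_at the 1 week change was 3.89 with an offset of 0.05 times the median and 1.96 with 1 times the median. 101880_at reached the filter on 1 array and was not tested; at 1 week it read 10.9 to 37.9 in the infarct and 16.8 to 52.2 in sham.

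Infarct exceeded remote tissue at 1 week on 101881_g_at (1.03 ± 0.33, adjusted p = 0.012) and 162483_f_at (0.87 ± 0.21, adjusted p = 8.5e-04). The brighter 99638_at did not show this, as given above, so the Col18a1 probe sets disagree about the size of the regional difference at 1 week. The 1 week call on 101881_g_at was lost without remote array 1 or 2. At 48 h all 4 tested Col18a1 probe sets were higher in the infarct than in sham and than in remote tissue, and of these the 162483_f_at difference from remote was lost without infarct array 2 or remote array 3.

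Lamb2, the laminin beta chain that is concentrated at muscle and vessel basement membranes, fell in the infarct up to 1 week, and in remote tissue it passed at 4 h alone. At 48 h the infarct arrays read 326.4, 443.3 and 521.2, the remote arrays 881, 1012 and 1045, and the sham upper arrays 1070, 1239 and 1558. By 1 week the infarct read 407, 448 and 474, remote tissue 967, 1076 and 1207, and sham upper tissue 1242, 1275 and 1467. At both times the 3 regions stood apart, and the infarct was far below the other two. The infarct change was -1.49 ± 0.14 at 48 h (adjusted p = 2.6e-11) and -1.49 ± 0.14 at 1 week (adjusted p = 5.8e-12), and infarct minus remote was -1.12 ± 0.13 and -1.20 ± 0.13.

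The fall of Lamb2 in the infarct was already present at 4 h (-0.70 ± 0.14, adjusted p = 7.1e-04) and 24 h (-1.07 ± 0.14, adjusted p = 8e-08). At 4 h remote tissue was lower than sham too (-0.53 ± 0.14, adjusted p = 0.039), and infarct minus remote was -0.16 ± 0.13 (adjusted p = 0.66). At 1 h the infarct change of -0.46 ± 0.14 (adjusted p = 0.043) was lost without sham upper array 1 or 3 or infarct array 1 or 2, and the remote call at 4 h was lost without any 1 of the 6 arrays. Lamb2 was also lower in sham lower than in sham upper tissue, by 0.31 ± 0.10 on the log2 scale (unadjusted p = 0.0129, adjusted p = 0.26). Against the single sham lower array the infarct change was -0.17 ± 0.20 at 1 h, -0.57 ± 0.20 at 4 h (adjusted p = 0.18), -0.69 ± 0.20 at 24 h (adjusted p = 0.01), -0.97 ± 0.20 at 48 h (adjusted p = 1.8e-04) and -1.03 ± 0.20 at 1 week (adjusted p = 4.9e-05). At 8 weeks Lamb2 was near sham again, at 930, 997 and 1003 in the infarct and 1036, 1044 and 1142 in sham upper tissue (-0.13 ± 0.14, adjusted p = 0.55).

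Lama2, the laminin alpha chain of muscle whose loss causes a congenital muscular dystrophy, fell later and for a shorter time against sham upper tissue. At 48 h the infarct arrays read 437, 499 and 573, the remote arrays 861, 927 and 1140, and the sham upper arrays 936, 1158 and 1542. The infarct lay below all other arrays, and remote and sham overlapped. The change was -1.18 ± 0.14 against sham (adjusted p = 3.8e-09) and -0.89 ± 0.13 against remote tissue (adjusted p = 4e-07). At 24 h the infarct change from the single sham lower array was -0.47, and from sham upper tissue it was -0.14 ± 0.14 (adjusted p = 0.46). At 1 week it was -0.48 ± 0.14 (adjusted p = 0.0031), with the infarct at 752, 847 and 1056 against 1188, 1265 and 1265 in sham, and against the single sham lower array it was -0.41 ± 0.20 (adjusted p = 0.095). At 8 weeks it was 0.14 ± 0.14. In remote tissue Lama2 did not pass at any time.

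Lamc1, the gamma chain shared by most laminins, rose in the infarct by 0.49 ± 0.13 at 24 h, 0.55 ± 0.13 at 48 h and 0.65 ± 0.13 at 1 week on 161706_f_at, whose suffix marks probes that are not unique to 1 transcript. At 1 week the infarct arrays read 970, 1379 and 1631, the remote arrays 1096, 1151 and 1257, and the sham upper arrays 792, 809 and 823. All arrays of the infarcted hearts were above sham upper tissue, and the infarct arrays spread on both sides of the remote ones. The single sham lower array read 1072, above the lowest infarct array. The remote change at 1 week was 0.51 ± 0.13 (adjusted p = 0.0024). Infarct minus remote passed at 24 h (0.36 ± 0.13) and 48 h (0.33 ± 0.12), and the 24 h call was lost without array 2 or 3 of either region, the 48 h call without infarct array 1 or 2 or remote array 3. When title numbers were a fixed block neither passed (adjusted p = 0.23 and 0.086). That fit left out array 3 of each region at 24 h, whose title numbers were in 1 region only. Against the single sham lower array Lamc1 did not pass at any of the 5 times that have one, and the values were 0.38 ± 0.19 at 24 h, 0.19 ± 0.19 at 48 h and 0.27 ± 0.19 at 1 week. The other Lamc1 probe set, 102404_at, has no such suffix but reached the filter on 0 arrays and was not tested, so the Lamc1 values rest on 1 non-unique probe set. Thus the beta, alpha 2 and gamma chain genes did not move together: at 48 h Lamb2 and Lama2 were lower in the infarct while Lamc1 was higher.

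Lama1, the laminin alpha chain of early embryos and some epithelia, was near or below the filter intensity throughout and reached it on 5 arrays. At 1 h the infarct arrays read 107.6, 125.3 and 192.1 against 16.0, 18.5 and 44.6 in remote tissue and 60.8, 74.8 and 122.8 in sham. Infarct exceeded remote by 1.38 ± 0.24 (adjusted p = 0.0011) and remote was below sham by 0.87 ± 0.26, while infarct against sham was 0.51 ± 0.26 (adjusted p = 0.27). The remote change at 1 h was lost without sham upper array 2 or remote array 2 or 3. At 48 h Lama1 was lower in the infarct than in remote tissue (-0.61 ± 0.24, adjusted p = 0.035), and at 8 weeks it was lower than in sham (-0.76 ± 0.26, adjusted p = 0.033). The 48 h call was lost without array 2 or 3 of either region, and the 8 week call without array 2 or 3 of either group. With nearly all values under the filter, these calls describe signal close to background.

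Nid1, a nidogen that links laminin to type IV collagen, was high at 1 week. The infarct arrays read 309, 379 and 434, the remote arrays 213, 275 and 333, and the sham upper arrays 69.7, 99.9 and 169.5. Both regions of the infarcted heart were above sham without overlap, and infarct and remote overlapped. The change was 1.44 ± 0.19 in the infarct (adjusted p = 1.8e-08) and 1.04 ± 0.19 in remote tissue (adjusted p = 3.4e-05), with infarct minus remote at 0.40 ± 0.18 (adjusted p = 0.068). From 1 h to 48 h Nid1 did not pass in either region.

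Hspg2, which encodes perlecan, the large heparan sulfate proteoglycan of basement membranes, passed against sham at 1 time, in the infarct at 24 h, when the infarct arrays read 606, 893 and 978, the remote arrays 1166, 1226 and 1357, and the sham upper arrays 916, 1118 and 1309. The infarct lay below remote tissue without overlap but overlapped sham. The change was -0.42 ± 0.15 against sham (adjusted p = 0.024) and -0.57 ± 0.14 against remote (adjusted p = 0.0022). When title numbers were a fixed block the difference from remote was -0.34 ± 0.12 (adjusted p = 0.057). That fit left out array 3 of each region at 24 h, as their title numbers were in 1 region only. The difference from sham was lost without infarct array 3 or without sham upper array 1 or 2, and against the single sham lower array it was -0.23 ± 0.21 (adjusted p = 0.49). The change at 1 week was 0.31 ± 0.15 (adjusted p = 0.074), so Hspg2 did not share the rise of Nid1 and the collagens by the test.

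**Figure D3:**
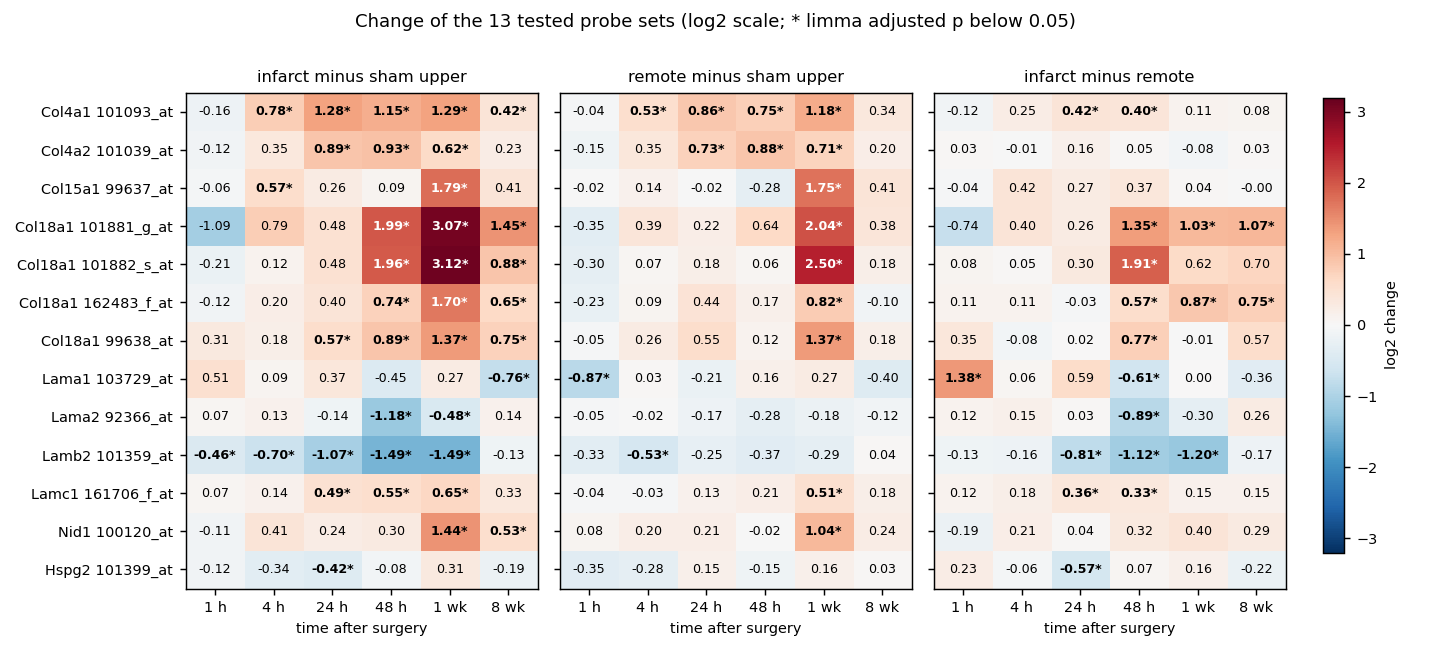
Log2 change of the 13 tested probe sets (rows) at the 6 times (columns) for infarct minus sham upper, remote minus sham upper and infarct minus remote; red is higher and blue lower in the first region, and an asterisk marks a limma adjusted p below 0.05. At 1 week the collagen, Lamc1 and Nid1 probe sets are red and starred in both comparisons with sham, while Lamb2 is blue and starred in the infarct comparisons only.

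In remote tissue type IV collagen rose first, and Col15a1, Col18a1, Lamc1 and Nid1 were raised with it at 1 week. Remote against sham upper gave 1 passing member at 1 h, where 7.33% of all tested probe sets passed, and 2 at 4 h, where 1.61% did. The 4 h pair was Col4a1 and Lamb2. At 24 h and 48 h the 2 passing members were Col4a1 and Col4a2, against 3.99% and 8.21% of the array. At 1 week 9 passed, all of them higher, against 35.7% of the array: both Col4 genes, Col15a1, 4 probe sets of Col18a1, Lamc1 and Nid1. At 8 weeks 0 passed by limma, against 0.086% of all, and 2 had an unadjusted p below 0.05. By the F test over all times 10 members differed from sham, against 39.4% of the array; Lama1, Lama2 and Hspg2 did not pass. This test was lost for Lamc1 and Col18a1 162483_f_at without any 1 sham upper array at 1 week, for Lamc1 without remote array 1 or 2 at 1 week, and for 162483_f_at without remote array 3 at 1 week or 2 at 24 h. Without any 1 array of either group at 4 h the number of passing members fell to 1 or 0. Fitted on the 2 groups alone, 0 passed at 1 h and 4 h and 1 each at 24 h and 48 h (Col4a1 at 24 h and Col4a2 at 48 h). Leaving out remote array 3 at 1 week took the adjusted p of Col18a1 162483_f_at to 0.055.

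The direct comparison of infarct with remote tissue takes no mean from the sham arrays, but they enter the same fit and its estimate of the spread. It gave 1 passing member at 1 h (4.57% of all tested probe sets) and 0 at 4 h by limma (1.27% of all), where 1 member had an unadjusted p below 0.05, as did 1061 probe sets of the array. At 24 h 4 members passed (31.4% of all), at 48 h 9 (46.1%), at 1 week 3 (39.1%) and at 8 weeks 2 (5.61%). At 24 h Col4a1 and Lamc1 were higher and Lamb2 and Hspg2 lower in the infarct, and without infarct array 2 the count was 2. At 48 h Col4a1, Lamc1 and 4 probe sets of Col18a1 were higher and Lama1, Lama2 and Lamb2 lower. The members passing at 1 week were Lamb2 and the dim Col18a1 probe sets 101881_g_at and 162483_f_at, and without infarct array 2 the count was 6. Fitted on the 2 groups alone, 0 passed at 1 h, 1 at 24 h (Lamb2), 5 at 48 h and 0 at 8 weeks.

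The infarct effect changed with time for every tested member. By the F test on the infarct effect at different times 13 passed, against 62.6% of the array. For the 3 dim Col18a1 probe sets that is in part set by the filter, which they passed mainly through groups where they are high. Between 1 week and 8 weeks the effect of infarction shifted in 9 members, against 35.1% of the array, toward sham in 8 of them, with Lama1 the other. It dropped by 0.86 ± 0.19 for Col4a1, 1.38 ± 0.27 for Col15a1 and 0.92 ± 0.27 for Nid1, the last of which was lost with quantile normalization (-0.65, adjusted p = 0.065). It moved up by 1.36 ± 0.20 for Lamb2 and 0.62 ± 0.20 for Lama2, whose effect had been below 0. At 8 weeks, Col4a1, Nid1 and 4 probe sets of Col18a1 still passed as higher than sham. The Nid1 call was lost with quantile normalization, no filter or an offset of 1 times the median. It was also lost without sham upper array 1 or 3 or infarct array 2 or 3. On Col18a1 99638_at the infarct arrays at 8 weeks read 482, 592 and 1091 against 323, 400 and 446 in sham, and on 101882_s_at they read 33.2, 78.0 and 311.8 against 35.3, 36.2 and 38.7. Infarct array 3 was the highest on all 4 of these Col18a1 probe sets. Col4a1 read 5202, 5399 and 5449 in the infarct then, and Nid1 139, 156 and 215. Without infarct array 3 the count at 8 weeks was 0, without infarct array 2 it was 3, and without sham upper array 2 or 3 it was 3 or 1. The 8 week infarct against remote calls went to 0 without infarct array 2 or 3 or remote array 1 or 2, and to 4 without infarct array 1. The summed signal of 6 fat cell markers was 8501 on infarct array 3 and 1343 and 2996 on the other infarct arrays at 8 weeks, against 1299 to 1445 in sham. The same array was highest for fibroblast markers, at 72136 against 36307 and 53179 (sham 24372 to 29217), and for mural cell markers, at 12922 against 6526 and 9046 (sham 5300 to 6244). It was lowest for cardiomyocyte markers, at 101106 against 147591 and 130858. The part of these shifts in the 8 week results was not tested.

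In sham upper tissue 1 member differed between times. Hspg2 passed the F test between times (adjusted p = 0.024), against 19.6% of the array, with sham means from 1114 ± 196 at 24 h to 1725 ± 273 at 4 h. This count was 0 without array 2 at 4 h or array 3 at 24 h. It was 2 without array 1 at 4 h, array 2 at 24 h or array 3 at 1 week, 3 without array 3 at 1 h and 4 without array 1 at 48 h. Sham lower against sham upper tissue of the same title numbers, 5 of each, gave 0 passing members by limma, against 0% of the array, and 5 members with an unadjusted p below 0.05, as did 1129 probe sets. Col4a1 was higher in the lower piece by 0.22 ± 0.09 (adjusted p = 0.36) and Lamc1 by 0.28 ± 0.09 (adjusted p = 0.26). The infarct comes from the lower position and sham upper tissue from the upper one, so position is part of every infarct against sham upper value. Sham and infarcted mice carried title numbers of separate ranges up to 48 h, so handling of those sets cannot be told apart from infarction there.

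Other genes of the basement membrane moved in both directions, as the members did. The list held 30 further genes for basement membrane and related matrix proteins, of which 23 were on the array and 18 tested. In the infarct at 1 week 10 were higher and 4 lower, where 58.4% of the array passed. Col8a1, a short-chain collagen of vessel walls, rose by 4.37 ± 0.28, Col6a3 by 2.45 ± 0.21 and Sparc, a collagen-binding matricellular protein, by 2.36 ± 0.22, while Lamb3 fell by 2.51 ± 0.34. Among the remaining laminin and nidogen genes, named after their values were seen, Nid2 rose by 1.96 ± 0.20 and Lama4, the alpha chain of endothelial basement membranes, by 0.92 ± 0.14. Lama5 fell by 0.92 ± 0.13, and Lamb1 changed by 0.28 ± 0.13 (adjusted p = 0.052). In remote tissue at 1 week the list gave 10 higher and 2 lower, where 35.7% of the array passed.

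Among receptors for basement membranes 5 were higher and 5 lower of 16 tested in the infarct at 1 week, a share near the 58.4% of the array that passed there. Dag1, the dystroglycan gene whose product binds the laminin alpha 2 chain, fell by 1.23 ± 0.12 and Sgca, a sarcoglycan of its complex, fell by 3.91 ± 0.26. The syndecans Sdc1 and Sdc4 rose by 1.25 ± 0.31 and 1.24 ± 0.19. Of 11 tested genes for collagen chaperones and modifying enzymes, 10 were higher and 0 lower by limma in that comparison, led by Lox, a collagen cross-linking enzyme, at 5.71 ± 0.40. Bmp1, which trims procollagen, rose by 2.19 ± 0.22, Loxl1 by 1.81 ± 0.16 and Crtap by 1.69 ± 0.16. Of 11 tested genes for enzymes that cleave basement membrane, 9 were higher and 0 lower. Mmp9, a gelatinase that cleaves type IV collagen, rose by 4.11 ± 0.46, Mmp14 by 2.79 ± 0.21, Adam9 by 1.96 ± 0.15 and Mmp3 by 1.91 ± 0.42.

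**Figure D4:**
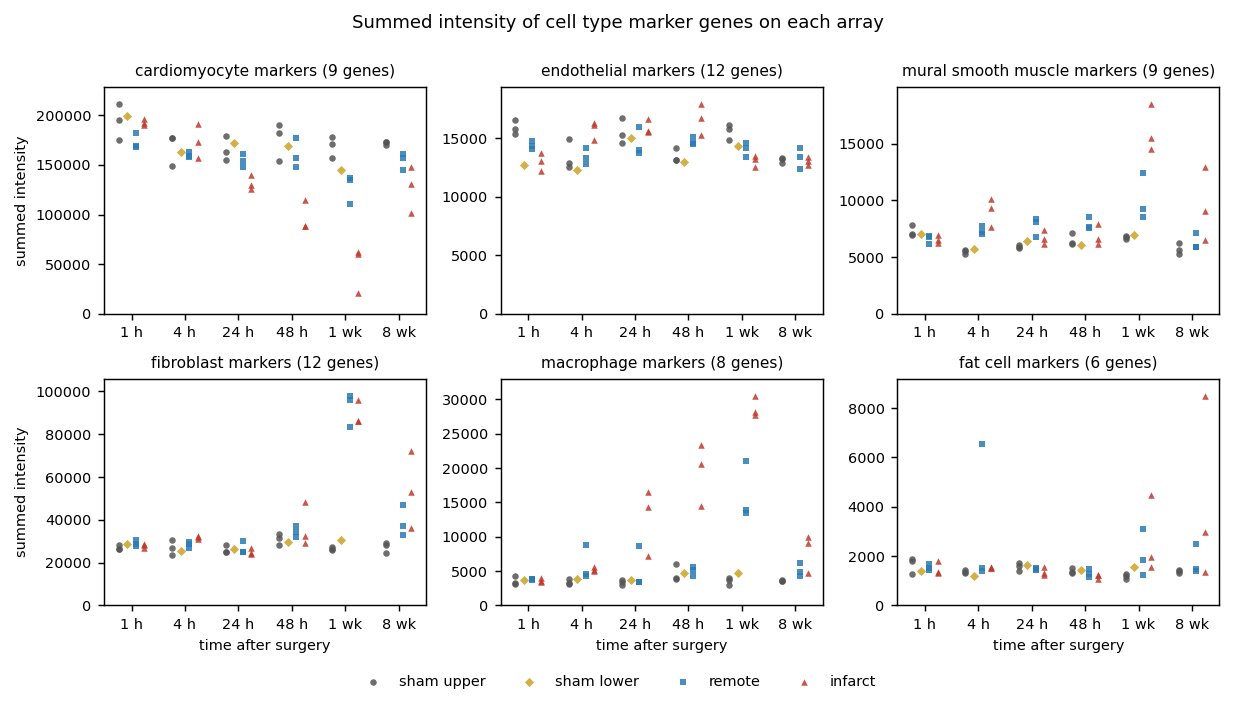
Summed intensity (linear axis) of the marker genes of 6 cell types on each array against time after surgery. At 1 week the cardiomyocyte sum is 20507 to 61881 in the infarct against 156772 to 177715 in sham upper tissue, the fibroblast sum is 86115 to 96046 against 25818 to 27328, and the endothelial sum is 12561 to 13493 against 14875 to 16133.

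The makeup of the tissue moved as well, but not at all times with the members. In a bulk sample, fewer cells of a type and less RNA per cell cannot be told apart. All 9 cardiomyocyte markers on the array were above the filter in sham, none was at 0 on any array, and their sum in the infarct fell from 125867 to 140091 at 24 h to 88794 to 114442 at 48 h and 20507 to 61881 at 1 week. Sham upper arrays read 154842 to 178661, 154295 to 189924 and 156772 to 177715 at these times, and remote tissue read 110447 to 137004 at 1 week. Lamb2 was below sham in the infarct at all of these times and Lama2 at 48 h and 1 week. At 4 h Lamb2 was below sham as well. The cardiomyocyte sum then read 156998 to 191479 in the infarct against 148954 to 176931 in sham upper tissue. Singly, 0 of the 9 markers passed by limma at 4 h (11.3% of the array) and 24 h (40.7%). At 48 h (49.4%) and 1 week (58.4%) all 9 were lower. At 8 weeks the cardiomyocyte sum was 101106 to 147591 in the infarct, still below the 169833 to 173455 of sham. Singly, 1 of the 9 markers was lower then by limma (19.9% of the array passed), and Lamb2 and Lama2 did not pass.

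The 12 fibroblast markers summed to 86115 to 96046 in the infarct and 83419 to 98032 in remote tissue at 1 week, against 25818 to 27328 in sham, and at 24 h to 23825 to 26716 in the infarct against 24808 to 28423. Col15a1 and Nid1 were high at 1 week, when this sum was high, whereas Col4a1 and Col4a2 were already raised at 24 h. At 48 h the fibroblast sum was 29039 to 48192 in the infarct against 28177 to 33290 in sham. Singly, 8 fibroblast markers were higher and 2 lower then (49.4% of the array passed), and Col15a1 and Nid1 did not pass. At 8 weeks the sum was 36307 to 72136 against 24372 to 29217. Then 9 were higher and 0 lower by limma (19.9% of the array), and Nid1 passed but Col15a1 did not. The 12 endothelial markers on the array summed to 15491 to 16670 at 24 h and 12561 to 13493 at 1 week in the infarct, against 14582 to 16718 and 14875 to 16133 in sham. At 4 h and 48 h they summed to 14876 to 16279 and 15259 to 17915 in the infarct, against 12535 to 14966 and 13127 to 14148 in sham. Their sum was thus above sham at 48 h and below it at 1 week, while Col4a1 and Col4a2 were above sham at both times. Singly, 5 endothelial markers were higher and 4 lower at 48 h, with a median change of 0.07 (49.4% of the array passed). At 1 week 1 was higher and 7 lower (58.4% of the array passed). The 9 mural cell and smooth muscle markers summed to 14489 to 18475 in the infarct at 1 week against 6569 to 6853 in sham. At 4 h they summed to 7629 to 10069 in the infarct and 7051 to 7692 in remote tissue (sham 5228 to 5633). The 24 h sums were 6148 to 7406 and 6805 to 8318 (sham 5799 to 6037). The 48 h sums were 6150 to 7948 and 7558 to 8514 (sham 6175 to 7111). The 8 macrophage markers summed to 27718 to 30534 in the infarct at 1 week against 3015 to 3948 in sham. Singly, 2 mural markers were higher and 0 lower in the infarct at 4 h by limma (11.3% of the array passed). At 24 h 2 were higher and 2 lower (40.7%), and at 48 h 1 was higher and 4 lower (49.4%). In remote tissue 0, 1 and 2 were higher and 0 lower by limma at these times (1.61%, 3.99% and 8.21%). No marker of any list was at 0. The part of these shifts in the members' changes was not tested.

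Ranked by correlation over the 54 arrays of infarct, remote and sham upper tissue, the genes most like each member differed between members. For Col4a1 they were Emp1 (0.91), Col4a2 (0.90) and Tpm4 (0.89), and for Col4a2 they were Col4a1, Rhoc (0.88) and Uck2 (0.87). For Col15a1 they were Col6a1 (0.91), Fndc1 (0.88) and Col14a1 (0.86), for Col18a1 Tspo (0.90), Col5a2 (0.88) and Col6a3 (0.87), and for Nid1 Fstl1 (0.89), Sparc (0.88) and Col5a1 (0.87). Lamb2 was most like Use1 (0.96), Fars2 (0.93) and Ak1 (0.92), and Lama2 like Ift172 (0.77), Inca1 (0.76) and Dcn (0.76). Lamc1 was most like Cavin3 (0.80), Cnn3 (0.80) and Tmsb10 (0.79). Lama1 and Hspg2 had weaker best matches, Gapdhs at 0.72 and Gnpda1 at 0.67. Among the members, Col4a1 correlated with Lamb2 at -0.72 and with Hspg2 at -0.12, and Lama2 with Lamb2 at 0.64. These are descriptions over arrays that share scaling, region and time.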

How the data were processed

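Per the labels, each of 59 Affymetrix arrays measured total RNA of 1 piece of mouse left ventricle. The deposited values are intensities on a linear scale, which the authors scaled so that the mean between the 2nd and 98th percentile was 499.2 to 499.9 on every array; the sources used here do not give the scaling tool or its target. Array medians were 157 to 214, and the number of arrays limits the precision. Of 12488 probe sets, 66 controls, 396 with several genes and 1193 with none were left out. Symbols were checked against the GRCm38.p6 annotation, which changed 0. The 8140 probe sets that reached 108.2, the 40th percentile over the whole table, on 3 or more arrays were tested. Intensities plus 45.6 (0.25 times the median) were changed to log2.

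Region by time groups entered 1 limma fit (R 4.3.3, limma 3.58.1) with the title number as a random block (consensus correlation 0.137; 36 residual and 4.51 prior degrees of freedom). Benjamini-Hochberg adjustment was made over all probe sets of a comparison. For sham lower against upper tissue the block was fixed. Intervals are 95% intervals from the fit. Other listed genes were named by the largest change among those passing, at most 4 per list, and the genes most like a member by Pearson correlation. The members and lists were chosen with earlier results of these data known. The scripts were tested on simulated data. Of the 59 arrays, 0 pairs were identical. Promoter windows come from RefSeq (GRCm38.p6). Figures were drawn with matplotlib 3.10.9.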

Additional observations from a re-analysis of the deposited data

Results flagged for a closer look

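The infarct effect, infarct minus sham upper tissue, differed between times for all 13 tested basement membrane probe sets by a test of the difference itself. By the same limma F test 62.6% of the array differed. Col18a1 101881_g_at, 101882_s_at and 162483_f_at passed the filter mainly through groups where they are high, so their result is in part set by the filter. Between 1 week and 8 weeks the effect fell by 0.86 on the log2 scale for Col4a1, fell by 1.38 for Col15a1 and fell by 0.92 for Nid1. For Col18a1 the change in effect was -1.62 on 101881_g_at, -2.235 on 101882_s_at and -1.05 on 162483_f_at, and for Lama1 the effect fell by 1.03. The effect on Lama2 moved up by 0.62 and that on Lamb2 by 1.36, from below sham toward it. The remaining probe sets did not pass between these 2 times, but their infarct effect differed over the 6 times by the limma F test, with an adjusted p of 6.8e-06 for Col4a2, 0.009 for Col18a1 99638_at, 0.034 for Lamc1 and 0.042 for Hspg2. The Lamc1 and Hspg2 calls were lost under several alternatives given with the other settings.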

How the results depend on the processing

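Of 72 differences of single members that passed in the 18 comparisons of regions, 0 changed direction under any alternative. They stopped passing in 5 cases with an offset of 0.05 times the median, 4 with 1 times the median, 6 with quantile normalization, 3 with no filter and 27 when only the 2 groups compared were fitted. When the control was both sham regions together 3 of 53 were lost, and with the sham lower array alone, an alternative added after seeing the data, 11 of 30. Quantile normalization shifted the median of all tested probe sets by -0.186 at 1 week for infarct against sham and by -0.116 for remote against sham.

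Counts of members passing in infarct against sham changed at 1 h to 2 with the offset of 0.05 times the median and to 0 with both sham controls together or sham lower alone, at 4 h to 0 with sham lower alone, at 24 h to 3 with sham lower alone or only the 2 groups, and at 8 weeks to 4 with 1 probe set per gene and 0 with only the 2 groups. In remote against sham they changed at 1 h to 0 with the offset of 1 times the median, quantile normalization or only the 2 groups, at 4 h to 0 with only the 2 groups and 1 with both sham controls together, and at 24 h and 48 h to 1 with only the 2 groups. In infarct against remote they changed at 1 h to 0, at 24 h to 1 and at 48 h to 5 with only the 2 groups. At 1 week they changed to 5 with the offset of 1 times the median or quantile normalization and to 1 with 1 probe set per gene, and at 8 weeks to 1 with the offset of 0.05 times the median, quantile normalization or no filter and to 0 with 1 probe set per gene or only the 2 groups. The cause was not tested, except that 1 probe set per gene tests fewer probe sets and 2 groups use fewer arrays.

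Residuals of infarct and remote arrays with the same title number correlated from -0.106 to 0.412 over 17 pairs. Of these 7 were over 0.1, all of them from 48 h on, with all 3 pairs at 1 week (0.205 to 0.412) and none up to 24 h. With no replicate block 4 of the 72 differences stopped passing and the infarct against remote count at 8 weeks went from 2 to 0. With the title number as a fixed replicate block the infarct against remote count at 24 h was 2 in place of 4, and Lamc1 at 48 h and Col18a1 101881_g_at at 8 weeks were lost. This fit kept only title numbers found in both regions, so at 24 h array 3 of each region was left out. The part of that in the 24 h count was not tested.

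Leaving out 1 array at a time, the infarct against sham counts ranged from 0 to 1 at 1 h, 2 to 3 at 4 h, 4 to 6 at 24 h, 9 to 10 at 48 h, 11 to 12 at 1 week and 0 to 8 at 8 weeks. Remote against sham ranged from 0 to 1 at 1 h, 0 to 1 at 4 h and 8 to 9 at 1 week, and stayed at 2 at 24 h and 48 h and 0 at 8 weeks. Infarct against remote ranged from 2 to 4 at 24 h, 6 to 9 at 48 h, 2 to 6 at 1 week and 0 to 4 at 8 weeks, and stayed at 1 at 1 h and 0 at 4 h.

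The tests over times were rerun after seeing the data. Infarct effects shifting between 1 and 8 weeks ranged from 6 to 9 over 7 other settings and 8 to 11 with 1 array left out. The count for sham upper between times was 3 with the offset of 1 times the median and 0 to 4 with 1 array left out. The F test of the infarct effect between times was lost for Lamc1 (adjusted p = 0.079) with quantile normalization, and for Lamc1 (adjusted p = 0.06) and Hspg2 (adjusted p = 0.057) with both sham controls together. With 1 array left out this F test was lost for Lamc1 (sham upper array 2 at 1 h, 4 h or 1 week, infarct array 1 or 2 at 1 h, 1 or 3 at 4 h or 1 week), for Hspg2 (sham upper array 1 or 2 at 4 h or 24 h or 1 at 1 week, infarct array 1 at 4 h, 3 at 24 h or any at 1 week) and for Lama1 (sham upper array 3 at 8 weeks). The shift from 1 to 8 weeks was lost with quantile normalization for Nid1, Lama1 and Col18a1 162483_f_at, with the smaller offset for Col18a1 101881_g_at and 162483_f_at, and with both sham controls for Lama1. With 1 array left out it was lost for Lama1 (sham upper array 2 at 1 week or 3 at 8 weeks, infarct array 3 at either time), Lama2 (infarct array 2 at 1 week) and Col18a1 101881_g_at (infarct array 1 at 8 weeks). The remote F test was lost with quantile normalization for Lamc1 and Col18a1 162483_f_at, with both sham controls for Lamc1 and with the smaller offset for 162483_f_at. The infarct F test was lost for Lama1 without sham upper or infarct array 3 at 8 weeks. Signal over background limits Lama1 and the dim Col18a1 probe sets.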
